A study of Mus musculus with 16 samples.

Results

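Chemokines are small secreted proteins that steer leukocytes by binding receptors on the surface of those cells. In the small intestine, epithelial cells release some of them, such as Ccl25 and Ccl28, and lymphocytes and myeloid cells release others, such as Ccl5 and Ccl8. This account covers 9 mucosal chemokines, Ccl5, Ccl6, Ccl8, Ccl25, Ccl28, Cxcl9, Cxcl10, Cxcl16 and Cx3cl1, chosen by symbol among the 46078 genes of an RNA sequencing count table. The table holds ileum mucosa of 16 mice on a C57Bl/6 background. There were 4 female and 4 male Slfn3KO mice, which lack Schlafen 3, and 4 female and 4 male WT mice. The labels give an age of 8 weeks for every mouse, whereas the study's methods describe older animals for mucosa collection, so the age of these mice could not be settled. The mice were described as littermates, and the construction of the knockout allele was not given in the sources used here. Total counts per library lay between 20823279 and 30813117.

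The targeted gene was read first. Slfn3 (ENSMUSG00000018986, mm10 chr11:83191330-83215154) had 0, 0, 0 and 2 counts in female Slfn3KO 1 to 4 and 1, 0, 0 and 0 counts in male Slfn3KO 1 to 4. It had 1, 4, 7 and 13 counts in female WT 1 to 4 and 1, 2, 19 and 0 counts in male WT 1 to 4. Slfn3 was thus close to the floor of 3 counts in several WT libraries too, and its level did not separate every WT library from the Slfn3KO libraries.

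The sex transcripts went against the label in 4 libraries. Xist, the RNA that coats the inactive X chromosome, lay between 311 and 628 scaled counts per library size (CPM) in 6 of the libraries labelled female but at 0 to 0.124 CPM in female WT 3 and 4. In male WT 3 and 4, Xist was at 436.5 and 401 CPM, and the Y-linked gene Ddx3y was at 0 and 0.0415 CPM. Ddx3y was at 42.0 and 49.6 CPM in female WT 3 and 4. The labels are kept below as labelled sex, and results are given with and without the 4 libraries WT 3 and WT 4 of both labelled sexes. Without them, 2 WT libraries of each labelled sex are left.

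The tissue label was checked against marker genes. All 8 absorptive enterocyte markers were detected in every library, with a summed level between 10890 and 62190 CPM, and Fabp2 had the highest mean of them over the 16 libraries. The 5 distal ileum markers, of which the bile acid binding protein Fabp6 had the highest mean, summed to between 3917 and 19260 CPM. The 5 pancreas and fat markers summed to at most 11.6 CPM.

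The chemokines spanned a wide range of levels. Per gene length and library size (RPKM), Ccl25 was the most abundant at 228 ± 40.3 (SD, n = 16), and it ranked first in 16 of 16 libraries. Ccl6 followed at 100 ± 18.8 RPKM and Ccl5 at 80.3 ± 40.3 RPKM, with Ccl6 above Ccl5 in 10 of 16 libraries, so that the order of these neighbours did not hold in every library. Cx3cl1 stood at 40.7 ± 11.6 RPKM and lay above Ccl28 in 16 of 16 libraries. Ccl28 at 15.1 ± 5.26 RPKM and Cxcl16 at 11.3 ± 3.93 RPKM overlapped, with Ccl28 higher in 10 of 16 libraries. The interferon-induced ligands were low, Cxcl9 at 2.85 ± 1.47 RPKM and Cxcl10 at 2.30 ± 1.05 RPKM, and they also overlapped. Ccl8 was the lowest at 0.914 ± 0.640 RPKM. Ccl25 alone made up 47.4% of the mean RPKM summed over the 9 genes.

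**Figure D1:**
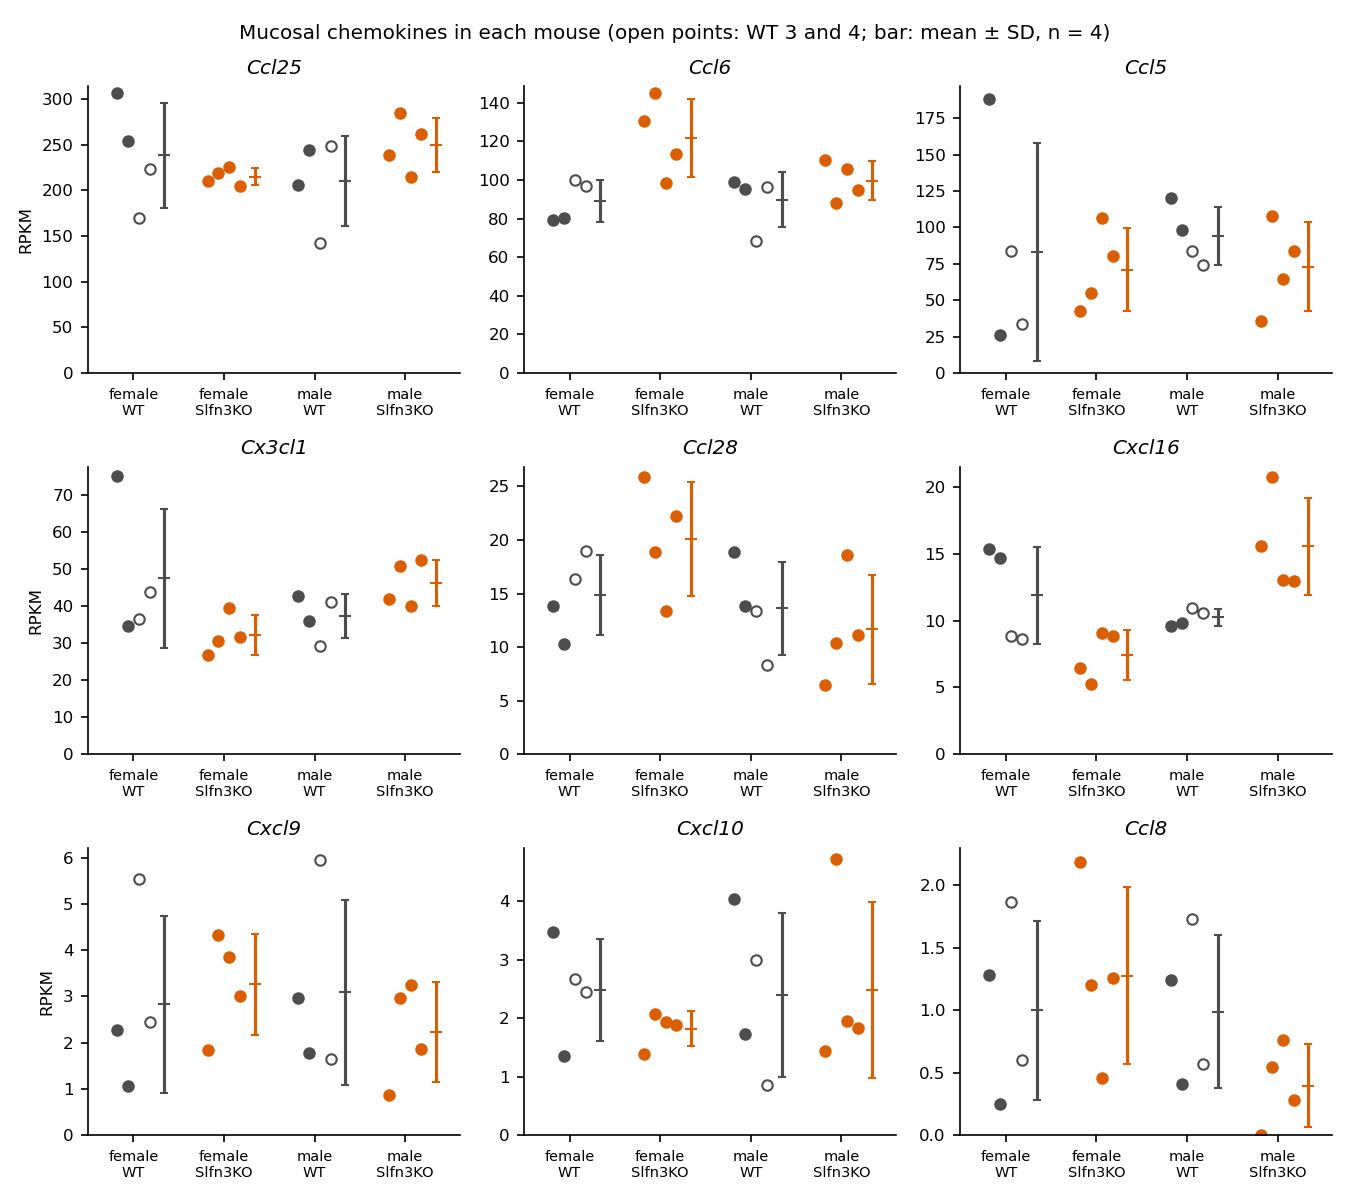
Level of each chemokine in RPKM (vertical axes from 0) in each of the 16 libraries, by labelled sex and genotype; open points are WT 3 and WT 4, whose sex transcripts went against the label, and bars give the mean ± SD of 4 libraries. Ccl25 stays between 142 and 306 RPKM, and the 4 male Slfn3KO points of Cxcl16 all lie above the 4 male WT points.

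Slfn3KO and WT were compared in all mice and in each labelled sex. None of the 9 chemokines was called different between Slfn3KO and WT in all mice with labelled sex as a covariate. A call required an adjusted p under 0.05 over all genes tested (edgeR quasi-likelihood test, Benjamini-Hochberg) and a change of at least 1.5-fold. The 9 genes were among 14822 that passed the filter on low counts, of which 0 were called (0%). At an unadjusted p under 0.05 with 1.5-fold, called the unadjusted threshold below, 0 of the 9 were found, against 984 of all genes (6.64%), and DESeq2 called 55 genes and 0 of the 9. Of the 9, 3 had a higher and 6 a lower fitted level in Slfn3KO, with a median log2 fold change of -0.13 beside -0.00 over all genes. No chemokine had all 8 Slfn3KO libraries above all 8 WT libraries, which held for 4 genes overall (0.027%).

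With WT 3 and 4 left out, edgeR called 0 of 15093 genes and 0 of the 9, and 457 genes stood at the unadjusted threshold (3.03%), none of them among the 9. Ccl25 and Cxcl9 changed direction in that fit. The largest difference relative to its error was that of Ccl6. Its log2 fold change was 0.30 ± 0.11 (SE, 95% interval 0.08 to 0.53) with all libraries and 0.31 ± 0.13 without WT 3 and 4, both under 1.5-fold.

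**Figure D2:**
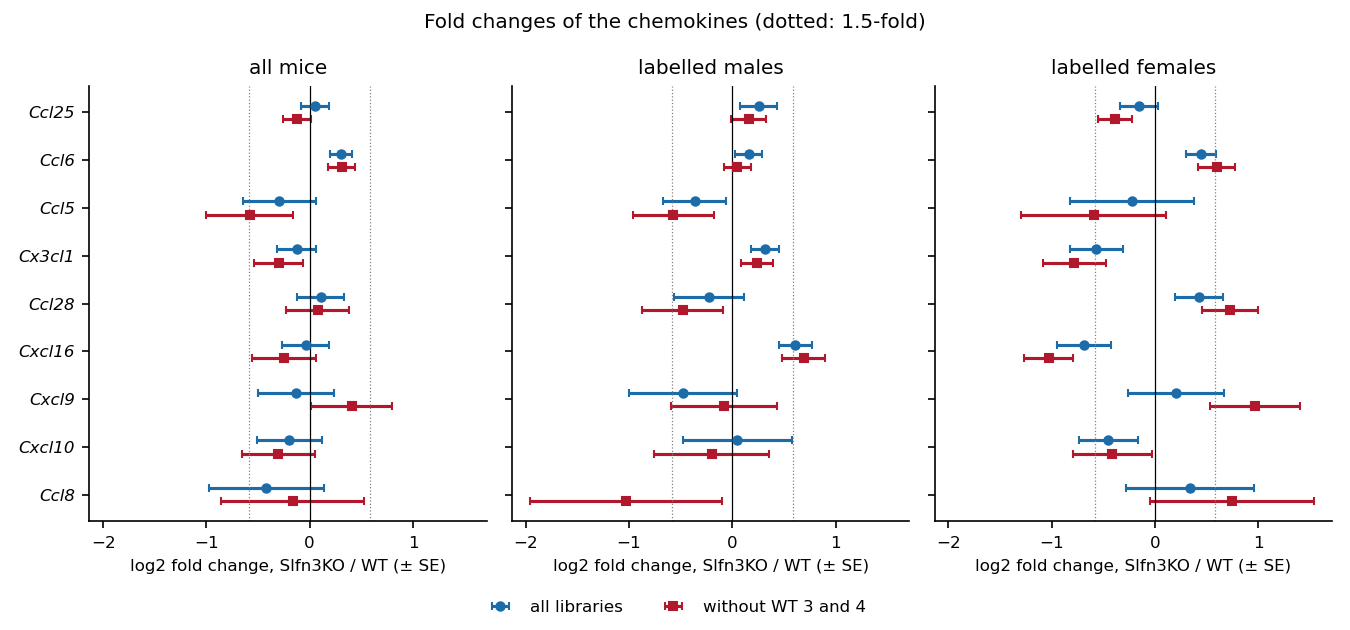
Log2 fold change of Slfn3KO over WT with its SE for each chemokine, from the edgeR fits over all mice, labelled males and labelled females, with all libraries (circles) and without WT 3 and 4 (squares); dotted lines mark 1.5-fold. In all mice every value lies within 1.5-fold, while Cxcl16 sits at 0.61 in labelled males and -0.69 in labelled females; Ccl8 did not pass the filter in labelled males with all libraries.

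Among the labelled males, 0 of 14124 genes were called by edgeR and 14 by DESeq2, with none of the 8 chemokines tested among either. Cxcl16 was the 1 chemokine of these 8 at the unadjusted threshold, beside 272 of all genes (1.93%). It was also the 1 chemokine with every Slfn3KO library above every WT library, beside 162 of all genes (1.15%). Without WT 3 and 4, which leaves 4 Slfn3KO against 2 WT, 0 of 14551 genes were called and Cxcl16 was again the 1 of 9 at the unadjusted threshold, beside 446 genes (3.07%).

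Among the labelled females, 0 of 14064 genes were called by edgeR and 506 by DESeq2, and again no chemokine was among them. At the unadjusted threshold stood 1 of the 9, Cxcl16, beside 1366 of all genes (9.71%). Without WT 3 and 4, 0 of 14634 genes were called and 4 of the 9 reached the unadjusted threshold, Ccl6 and Ccl28 higher and Cxcl16 and Cx3cl1 lower in Slfn3KO, beside 2298 of all genes (15.7%). Each of these counts thus has to be read against a broad movement of genes in the same libraries.

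Ccl25 (ENSMUSG00000023235, chr8:4325210-4360020, plus strand) is the epithelial ligand of Ccr9, the receptor that brings lymphocytes to the small intestine. Its level in the labelled females was 817, 678, 452.5 and 597 CPM in WT 1 to 4 and 561, 585, 603.5 and 547 CPM in Slfn3KO 1 to 4. In the labelled males it was 548, 650.4, 379 and 665 CPM in WT and 636, 758, 572 and 698 CPM in Slfn3KO. The 8 Slfn3KO libraries lay inside the range of the 8 WT libraries, whose lowest members were male WT 3 and female WT 3. Ccl25 had a log2 fold change in all mice of 0.05 ± 0.14 (SE, 95% interval -0.24 to 0.34; adjusted p = 0.892, edgeR), and without WT 3 and 4 it was -0.13 ± 0.13. The interval with all libraries excludes a 1.5-fold change in either direction. By labelled sex it was 0.26 ± 0.18 in males and -0.15 ± 0.18 in females, and 0.16 ± 0.17 and -0.39 ± 0.16 when WT 3 and 4 were left out.

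Ccl28 (ENSMUSG00000074715, chr13:119623819-119654354, plus strand), a mucosal ligand of Ccr10 and Ccr3 that attracts IgA-producing plasma cells, was measured at 51.8, 38.2, 61.1 and 70.9 CPM in female WT 1 to 4 and at 96.5, 70.5, 50.1 and 83.0 CPM in female Slfn3KO 1 to 4. In the males it was at 70.6, 51.5, 49.97 and 31.1 CPM in WT and at 24.0, 38.9, 69.6 and 41.7 CPM in Slfn3KO. The groups overlapped in each labelled sex. Fitted log2 fold changes were 0.43 ± 0.23 in labelled females (adjusted p = 0.347, edgeR) and -0.22 ± 0.34 in labelled males (adjusted p = 0.939, edgeR). Their difference, 0.66 ± 0.44, did not pass the test (adjusted p = 0.530, edgeR interaction of labelled sex and genotype). When WT 3 and 4 were left out, Ccl28 was at 0.73 ± 0.27 in females and -0.48 ± 0.39 in males, and the difference of 1.22 ± 0.51 stood at the unadjusted threshold (adjusted p = 0.154, edgeR). The male value was -0.024 without male Slfn3KO 1 and -0.55 without male Slfn3KO 3.

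With all libraries, the membrane-bound ligands Cxcl16 and Cx3cl1 gave the clearest pattern by labelled sex. Cxcl16 (ENSMUSG00000018920, chr11:70453983-70459984, minus strand) is made as a transmembrane protein, is shed by Adam10 and binds Cxcr6 on T cells and innate lymphoid cells. It was at 29.0, 29.6, 33.0 and 32.0 CPM in male WT 1 to 4 and at 47.1, 62.6, 39.4 and 39.2 CPM in male Slfn3KO 1 to 4. In the labelled females it was at 46.5, 44.3, 26.8 and 26.1 CPM in WT 1 to 4 and at 19.5, 15.8, 27.3 and 26.8 CPM in Slfn3KO 1 to 4. All 4 male Slfn3KO libraries were above all libraries labelled male WT. In the labelled females 2 Slfn3KO libraries were below all WT libraries and the other 2 lay beside WT 3 and 4. Grouped by sex transcripts instead, the WT libraries with high Xist were female WT 1 and 2 and male WT 3 and 4. All 4 female Slfn3KO libraries lay below these. The other WT libraries, with high Ddx3y, all lay below the 4 male Slfn3KO libraries. This grouping was made after the values were seen and was not tested.

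Cxcl16 had a log2 fold change of 0.61 ± 0.16 (95% interval 0.24 to 0.97; adjusted p = 0.925, edgeR) in labelled males and -0.69 ± 0.26 (95% interval -1.28 to -0.09; adjusted p = 0.273, edgeR) in labelled females. When WT 3 and 4 were left out these were 0.69 ± 0.21 (adjusted p = 0.644, edgeR) and -1.03 ± 0.24 (adjusted p = 0.121, edgeR). The effect in females minus that in males was -1.29 ± 0.32, which did not pass the edgeR test (adjusted p = 0.441), and 0 of 14822 genes passed it (0%). At the unadjusted threshold for this difference stood 2 of the 9, Cxcl16 and Cx3cl1, both with the lower effect in females, beside 946 of all genes (6.38%). DESeq2 called 24 genes for the difference, Cxcl16 among them (log2 difference -1.32, adjusted p = 0.0491). Without WT 3 and 4 the difference was -1.71 ± 0.35 and passed the edgeR test (adjusted p = 0.0441), 1 of the 9, together with 359 of all 15093 genes (2.38%), and 3 of the 9 stood at the unadjusted threshold beside 3093 genes (20.5%). In the same fit edgeR also called 2 of 5 Paneth cell markers (median log2 difference of the list 2.43) and 2 of 5 crypt and dividing cell markers (median 1.66), with all 5 of each list higher. All 5 goblet and enteroendocrine markers (median -0.70) and all 8 absorptive enterocyte markers (median -1.13) were lower in this fit. Of these, 4 and 3 stood at the unadjusted threshold and 0 were called. That fit has 2 WT libraries of each labelled sex, and over all alternatives run the adjusted p of this difference lay between 0.0441 and 0.705. In all mice the opposite values averaged to -0.04 ± 0.23 on the log2 scale.

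Cx3cl1 (ENSMUSG00000031778, chr8:94772009-94782423, plus strand), or fractalkine, is the epithelial and endothelial ligand of Cx3cr1 on mononuclear phagocytes, and is likewise shed by Adam10 and Adam17. Its level was 158, 133, 109 and 152 CPM in male WT 1 to 4 and 155, 188, 148 and 194 CPM in male Slfn3KO 1 to 4. In the labelled females it was 278, 128, 135.5 and 162 CPM in WT 1 to 4 and 99.0, 113, 146 and 117 CPM in Slfn3KO 1 to 4. Female WT 1 was far above the other female libraries, and 3 of 4 female Slfn3KO libraries lay below all female WT libraries. The log2 fold change was 0.32 ± 0.14 (adjusted p = 0.925, edgeR) in labelled males and -0.57 ± 0.26 (adjusted p = 0.296, edgeR) in labelled females, and their difference was -0.88 ± 0.31 (adjusted p = 0.441, edgeR). Without female WT 1 the female value was -0.26 and the difference -0.57. When WT 3 and 4 were left out, Cx3cl1 was at 0.24 ± 0.15 in males and -0.78 ± 0.31 in females, with a difference of -1.01 ± 0.37 (adjusted p = 0.123, edgeR).

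Markers of epithelial maturity and of the proximal small intestine moved in the same libraries, whereas the distal ileum markers did not mirror them. The 6 proximal small intestine markers, of which the lactase gene Lct had the highest mean over the 16 libraries but was under 2 CPM in 5 of them, and with Cyp8b1 at 0 counts in 15 of 16 libraries, summed to 1991, 513, 22.03 and 86.5 CPM in female WT 1 to 4 and to 23.7, 28.2, 215 and 47.3 CPM in female Slfn3KO 1 to 4. In the labelled males they summed to 336, 886.5, 28.0 and 673 CPM in WT and to 245, 721, 286 and 1414 CPM in Slfn3KO. Female WT 1 thus held the highest level of this list and of Cx3cl1, and female Slfn3KO 1 and 2, lowest for Cxcl16, were near its lowest levels. Of the 5 tested markers of this list, 5 were lower in female Slfn3KO, with a median log2 fold change of -1.84, and 5 were higher in male Slfn3KO, with a median of 0.28. The 5 were again lower in females without WT 3 and 4, with a median of -2.69, while in males 2 were higher and 3 lower, with a median of -0.04. With all libraries edgeR called 0 of them in either labelled sex, and at the unadjusted threshold stood 1 in females (beside 9.71% of all genes) and 0 in males (beside 1.93%). When WT 3 and 4 were left out it called 0, and the counts were 3 in females (beside 15.7%) and 0 in males (beside 3.07%). The 5 distal ileum markers summed to 4429 and 19260 CPM in female WT 1 and 2, whose Cxcl16 levels were close. In female Slfn3KO 1 and 2 they summed to 8972 and 11030 CPM. With all libraries, 4 of the 5 were lower in Slfn3KO in each labelled sex, with medians of -0.17 in females and -0.30 in males. Without WT 3 and 4 the medians were -0.07 and 0.48.

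The 8 absorptive enterocyte markers summed to 62190, 38270, 17700 and 27580 CPM in female WT 1 to 4 and to 13720, 10890, 27470 and 23600 CPM in female Slfn3KO 1 to 4, and to 34100, 42300, 21590 and 45390 CPM in male WT and 31180, 44470, 29820 and 54090 CPM in male Slfn3KO. The 5 Paneth cell markers, of which Lyz1 had the highest mean, summed to 1120, 3169, 5307 and 2114 CPM in female WT and to 10410, 12600, 6059 and 7654 CPM in female Slfn3KO. In the males the Paneth list summed to 7526, 5598, 1171 and 2014 CPM in WT and to 4532, 6092, 5394 and 5585 CPM in Slfn3KO. Female Slfn3KO 1 and 2, with the lowest Cxcl16, had the lowest enterocyte and the highest Paneth cell sums of the 16 libraries. The part of these cell populations in the Cxcl16 and Cx3cl1 values was not tested.

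Ccl6, Ccl5 and Ccl8 share chromosome 11 with the targeted gene. In the file's coordinates the gap from Slfn3 to the nearest edge of the gene is 311 kb for Ccl5, 373 kb for Ccl6 and 1075 kb for Ccl8, and Cxcl16 lies 12731 kb away on the same chromosome. Whether the deleted allele or the chromosome segment that carries it bears on these genes was not tested.

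Ccl6 (ENSMUSG00000018927, chr11:83587882-83593087, minus strand) is a chemokine of rodents that acts through Ccr1. It was at 142, 144, 180 and 174 CPM in female WT 1 to 4 and at 235, 260, 177 and 203 CPM in female Slfn3KO 1 to 4. In the males it was at 178, 171, 123 and 173 CPM in WT 1 to 4 and at 198, 158, 190 and 170 CPM in Slfn3KO 1 to 4. Thus 5 of 8 Slfn3KO libraries were above all 8 WT libraries, 3 of them labelled female, and the groups overlapped. Ccl6 had a log2 fold change of 0.44 ± 0.14 in labelled females (95% interval 0.12 to 0.77; adjusted p = 0.243, edgeR) and 0.16 ± 0.13 in labelled males (adjusted p = 0.925, edgeR). When WT 3 and 4 were left out these were 0.60 ± 0.18 (adjusted p = 0.143, edgeR) and 0.05 ± 0.13 (adjusted p = 0.954, edgeR), and without male WT 3 alone the male value was 0.061. The effect in females minus that in males was 0.30 ± 0.20 with all libraries (adjusted p = 0.537, edgeR). Without WT 3 and 4 it was 0.565 ± 0.21 (adjusted p = 0.117, edgeR). In all mice the adjusted p was 0.333 (edgeR), and over the pooled alternatives no value of Ccl6 changed direction. Female Slfn3KO 1 and 2, highest for Ccl6, had the highest Paneth cell sums, 10410 and 12600 CPM. Male WT 3 and female WT 1, lowest for Ccl6, had the lowest, 1171 and 1120 CPM. The macrophage and dendritic cell list was highest in male WT 3, at 303 CPM. The part of these cell populations in the Ccl6 values was not tested.

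Ccl5 (ENSMUSG00000035042, chr11:83525778-83530518, minus strand), or RANTES, is stored and released by effector and intraepithelial T cells and binds Ccr1 and Ccr3, among others. It was the most variable of the abundant members, at 181, 25.1, 80.8 and 32.5 CPM in female WT 1 to 4 and at 40.8, 52.9, 102 and 77.2 CPM in female Slfn3KO 1 to 4. In the males it was at 115, 94.5, 80.2 and 71.3 CPM in WT 1 to 4 and at 34.6, 104, 62.2 and 80.2 CPM in Slfn3KO 1 to 4. Female WT held both the highest and the lowest library of the 16, so the groups were nested. The log2 fold change in all mice was -0.29 ± 0.35 (95% interval -1.04 to 0.45; adjusted p = 0.746, edgeR). It was -0.58 ± 0.42 without WT 3 and 4 (adjusted p = 0.763, edgeR) and 0.06 without female WT 1.

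Ccl5 went with the T cell and intraepithelial lymphocyte markers. This list of 10 genes, of which Gzma had the highest mean and with none at 0 in any library, summed to 563, 92.3, 292 and 206 CPM in female WT 1 to 4 and to 128, 197, 368 and 272.5 CPM in female Slfn3KO 1 to 4. In the males it summed to 368, 366, 338 and 263 CPM in WT and to 127, 354, 227 and 264 CPM in Slfn3KO. The library highest for Ccl5, female WT 1, was the highest for the list, and the library lowest for Ccl5, female WT 2, was the lowest. In whole mucosa, fewer T cells and less RNA per cell cannot be told apart. The genes most like Ccl5 over the 16 libraries were Itgae (Pearson r = 0.97, Spearman rho = 0.924), and Cd7 (r = 0.967, rho = 0.912). With the 2 libraries farthest from the median left out, r was 0.97 for Itgae and 0.963 for Cd7. Itgae is also in the marker list, and no p is given since these genes were picked as the highest of 14767.

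**Figure D3:**
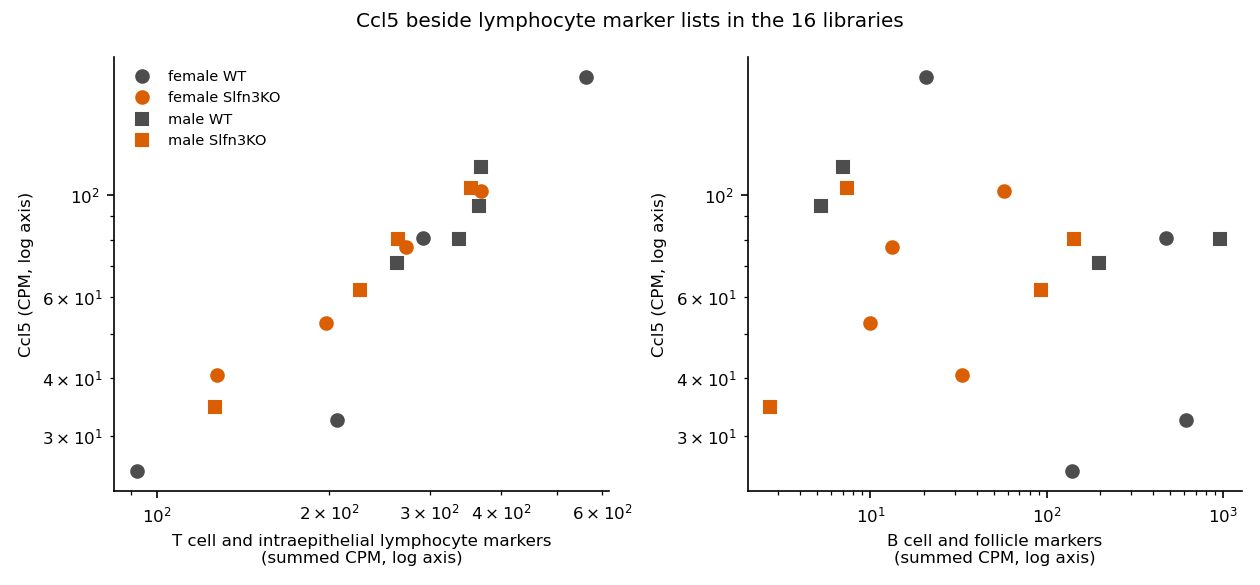
Ccl5 level (CPM, log axis) of the 16 libraries against the summed CPM (log axis) of 10 T cell and intraepithelial lymphocyte markers (left) and of 10 B cell and follicle markers (right); circles are labelled females, squares labelled males, grey WT and orange Slfn3KO. Ccl5 climbs with the T cell list from 25.1 CPM in female WT 2 to 181 CPM in female WT 1, and the B cell list runs from 2.70 to 956.5 CPM.

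Ccl8 (ENSMUSG00000009185, chr11:82115185-82116799, plus strand), a macrophage chemokine that binds Ccr8 in mice, was near the limit of detection. It ranged from 0 CPM in male Slfn3KO 1 to 1.12 CPM in female Slfn3KO 1, where 3 counts correspond to 0.100 to 0.151 CPM, and it did not pass the filter among the labelled males with all libraries. Ccl8 had a log2 fold change in all mice of -0.42 ± 0.56 (adjusted p = 0.767, edgeR), with a 95% interval from -1.60 to 0.77, and -0.17 ± 0.69 when WT 3 and 4 were left out. In labelled females it was 0.34 ± 0.62, and without WT 3 and 4 it was 0.75 ± 0.79 in females and -1.03 ± 0.93 in males. The effect in females minus that in males was 1.6 ± 1.1 (adjusted p = 0.524, edgeR), and 1.8 ± 1.3 without WT 3 and 4 (adjusted p = 0.414, edgeR). The level of Ccl8 also varied widely between mice, with a coefficient of variation of 62.2% in WT and 83.2% in Slfn3KO.

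Cxcl9 and Cxcl10 are neighbours on chromosome 5, 18.6 kb apart, and are induced by interferon-gamma to draw Cxcr3-bearing T cells. Cxcl9 (ENSMUSG00000029417, chr5:92321347-92328079, minus strand) and Cxcl10 (ENSMUSG00000034855, chr5:92346638-92348889, minus strand) both read from the higher coordinate down. The 250 bases before each start (GRCm38.p6, minus strand) are shown because these are the interferon-induced pair of the set, with capitals marking matches on either strand to the core of an interferon-stimulated response element (GAAA and GAAA with any 2 bases between them) or to a form of the kappaB site (GGGA and CC with any 4 bases between them).
Cxcl10, chr5:92348890-92349139: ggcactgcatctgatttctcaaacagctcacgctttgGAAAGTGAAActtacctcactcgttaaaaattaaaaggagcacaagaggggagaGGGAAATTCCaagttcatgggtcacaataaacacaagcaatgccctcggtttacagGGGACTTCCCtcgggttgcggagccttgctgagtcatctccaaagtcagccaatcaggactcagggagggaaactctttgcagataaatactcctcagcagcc
Cxcl9, chr5:92328080-92328329: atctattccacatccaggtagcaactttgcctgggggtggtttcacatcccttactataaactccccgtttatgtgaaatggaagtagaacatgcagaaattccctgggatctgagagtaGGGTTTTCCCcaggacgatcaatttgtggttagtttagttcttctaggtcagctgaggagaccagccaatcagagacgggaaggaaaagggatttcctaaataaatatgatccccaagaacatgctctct

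The Cxcl10 window held the interferon core from 213 to 204 bases before the start and the kappaB letters from 159 to 150 and from 103 to 94 bases before it. The Cxcl9 window held the kappaB letters on the opposite strand, from 130 to 121 bases before the start. Of 32851 promoter windows of the same length, 2.98% held the interferon core and 17.6% the kappaB letters. The letters of a gamma-activated site (TTC and GAA with any 3 bases between them) were in neither window and in 7.02% of all. A match to these letters is a description of the window, and no binding was measured. Of the 9 chemokines, 7 had an entry in the promoter table, and Ccl5 and Cxcl16 had none.

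Cxcl9 was at 6.83, 3.21, 16.7 and 7.36 CPM in female WT 1 to 4 and at 5.54, 13.1, 11.7 and 9.06 CPM in female Slfn3KO 1 to 4. In the males it was at 8.97, 5.36, 17.97 and 4.98 CPM in WT 1 to 4 and at 2.63, 8.92, 9.78 and 5.60 CPM in Slfn3KO 1 to 4. The highest libraries, male WT 3 and female WT 3, were both among those with sex transcripts against the label. They also had the highest macrophage and dendritic cell sums, 303 and 213 CPM. Their B cell sums, 956.5 and 472 CPM, were among the highest too. Female WT 4, however, had a B cell sum of 616 CPM and a macrophage and dendritic cell sum of 203 CPM. Its Cxcl9 level of 7.36 CPM was below the median of the 16 libraries, 8.14 CPM. The part of these cells in the Cxcl9 values was not tested. The log2 fold change in all mice was -0.13 ± 0.37 (adjusted p = 0.895, edgeR), and without WT 3 and 4 it was 0.41 ± 0.39 (adjusted p = 0.788, edgeR), in the opposite direction. By labelled sex Cxcl9 was at -0.48 ± 0.52 in males and 0.20 ± 0.47 in females, and at -0.08 ± 0.51 and 0.97 ± 0.44 when WT 3 and 4 were left out.

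Cxcl10 was at 7.83, 3.05, 6.00 and 5.52 CPM in female WT 1 to 4 and at 3.14, 4.66, 4.35 and 4.25 CPM in female Slfn3KO 1 to 4. In the males it was at 9.11, 3.89, 6.73 and 1.91 CPM in WT 1 to 4 and at 3.24, 10.6, 4.41 and 4.13 CPM in Slfn3KO 1 to 4. Male Slfn3KO 2 was the highest library, and the genotypes overlapped in each labelled sex. Cxcl10 had a log2 fold change in all mice of -0.20 ± 0.31 (95% interval -0.86 to 0.47; adjusted p = 0.804, edgeR). Without male Slfn3KO 2 it was -0.47, without male WT 1 it was -0.064, and without WT 3 and 4 it was -0.31.

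Interferon-gamma signalling was read from a list of 10 genes. Of the 10 genes tested in all mice, edgeR called 0, 1 had an unadjusted p under 0.05 (beside 1770 of 14822 over all genes), 10 had a lower fitted level in Slfn3KO (beside 50.7% of all genes), and the median log2 fold change was -0.18. In labelled females 4 were higher and 5 lower of 9 tested, with a median of -0.05, and without WT 3 and 4 the females had 5 higher and 5 lower. In labelled males 8 of 10 were lower, with a median of -0.23, and without WT 3 and 4 the males had 4 higher and 6 lower, with a median of -0.22. In all mice without WT 3 and 4, 9 of 10 were lower, with a median of -0.12. The T cell and intraepithelial lymphocyte list was lower for 10 of 10 genes in all mice too, with a median of -0.32. The cytokine gene Ifng was at 0.317 ± 0.202 RPKM in Slfn3KO and 0.393 ± 0.278 RPKM in WT (SD, n = 8 each). Its log2 fold change was -1.04 ± 0.80 in labelled males and its difference between the labelled sexes 1.58 ± 1.21, and without WT 3 and 4 these were -1.47 ± 0.85 and 2.70 ± 1.55, none of which passed the edgeR test. Irf1, a transcription factor induced by interferon-gamma, had a log2 fold change of -0.14 ± 0.19 (adjusted p = 0.768, edgeR).

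Each receptor given here had a lower mean per length than its ligand. Ccr9, the receptor of Ccl25, stood at 1.64 ± 0.711 RPKM over the 16 libraries beside 228 RPKM for its ligand. Cxcr6 stood at 2.18 ± 0.812 RPKM, Cxcr3 at 1.10 ± 0.403 RPKM and Cx3cr1 at 0.741 ± 0.234 RPKM. Ccr1 was at 1.001 ± 0.693 RPKM, and Ccr10, which marks IgA plasma cells, was at 0.376 ± 0.212 RPKM. These receptors are carried by leukocytes, whereas some of the ligands, such as Ccl25 and Ccl28, come from the epithelium and others, such as Ccl5, from lymphocytes. The part of these cell populations in the lower receptor levels was not tested. The atypical receptor Ackr4, which scavenges Ccl25, was at 0.132 ± 0.0734 RPKM. Ccr3 and Ccr8 were near 0, with means of 0.0363 and 0.0189 RPKM, and neither passed the filter.

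**Figure D4:**
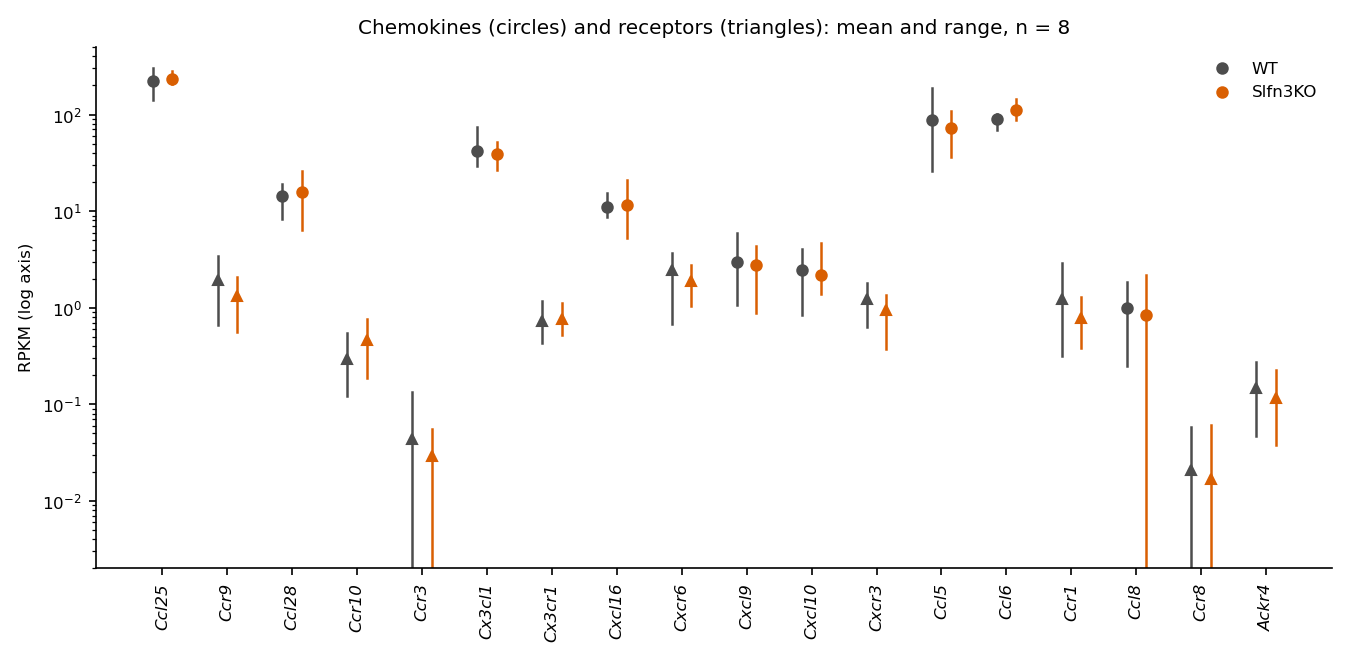
Mean level (points) and range (lines) in RPKM on a log axis of the chemokines (circles) and receptors (triangles) in 8 WT (grey) and 8 Slfn3KO (orange) libraries; lines that reach the bottom edge include a library at 0. Ccl25 lies at 228 RPKM over all libraries and its receptor Ccr9 at 1.64 RPKM.

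Of 21 chemokine receptors, 17 passed the filter in all mice and edgeR called 0. At the unadjusted threshold stood 5, all lower in Slfn3KO, beside 6.64% of all genes, and the median log2 fold change of the 17 was -0.60 beside -0.00 over all genes. Named after their values were seen, the 4 with the largest changes were Cxcr5 (-3.15 ± 1.13), Ccr6 (-2.85 ± 1.07), Cxcr4 (-2.28 ± 0.89) and Ccr7 (-2.05 ± 0.75), which are known for placing B cells and T cells in lymphoid follicles. Without WT 3 and 4, 0 of 17 reached that threshold in all mice and the median was 0.37, while Cxcr5 was at 3.35 ± 1.97 in labelled males and -1.52 ± 1.09 in labelled females. Among the receptors of the 9 chemokines, the log2 fold change in all mice was -0.58 ± 0.28 for Ccr9 (adjusted p = 0.435, edgeR), -0.40 ± 0.28 for Cxcr6 (adjusted p = 0.592, edgeR) and 0.07 ± 0.23 for Cx3cr1 (adjusted p = 0.913, edgeR). Values for Ccr10 and Cxcr3 were 0.64 ± 0.38 and -0.38 ± 0.26, for Ccr1 -0.68 ± 0.42 and for Ackr4 -0.37 ± 0.39, and each had an adjusted p over 0.05 (edgeR). When WT 3 and 4 were left out, Ccr9 was at -0.62 ± 0.37, Cxcr6 at -0.23 ± 0.36, Cx3cr1 at 0.37 ± 0.22, Ccr10 at 0.97 ± 0.48 and Cxcr3 at -0.10 ± 0.33, while Ccr1 and Ackr4 turned to 0.43 ± 0.33 and 0.39 ± 0.41. In labelled males Ccr9 and Cxcr6 were at -0.95 ± 0.30 and -0.78 ± 0.30 while Cxcl16 was at 0.61 (adjusted p = 0.925 for each, edgeR).

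The proteases that act on these ligands were abundant. Dpp4, a brush border peptidase that trims Cxcl9, Cxcl10 and Ccl5, was at 213 ± 58.7 RPKM, the sheddase Adam10 at 37.3 ± 4.48 RPKM and Adam17 at 6.44 ± 0.852 RPKM. Their log2 fold changes in all mice were -0.37 ± 0.18, -0.12 ± 0.09 and -0.19 ± 0.09, and edgeR called 0 of the 3, with 1 (Adam17) at an unadjusted p under 0.05, beside 1770 of 14822 genes.

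The other chemokines were read from a list of 29. Of these, 15 passed the filter, edgeR called 0 and 1 stood at the unadjusted threshold, Cxcl13, the follicle chemokine that binds Cxcr5, beside 6.64% of all genes. Ccl26, Cxcl15 and Cxcl17 had 0 counts in 16 of 16 libraries. The most abundant per length were Cxcl13 at 9.57 ± 15.8 RPKM, Ccl9 at 4.25 ± 1.31 RPKM and Xcl1 at 3.58 ± 1.98 RPKM over the 16 libraries. In WT alone, with WT 3 and 4 included, Cxcl13 averaged 17.1 ± 19.9 RPKM, and in Slfn3KO it averaged 2.02 ± 2.42 RPKM. That WT mean was above those of Ccl28 (14.2 ± 3.80 RPKM) and Cxcl16 (11.1 ± 2.58 RPKM). The largest fitted changes in all mice were those of Cxcl13 (-3.16 ± 1.12; adjusted p = 0.333, edgeR), the lymphatic chemokine Ccl21a (0.96 ± 0.60; adjusted p = 0.549, edgeR) and Ccl4 (-0.72 ± 0.36; adjusted p = 0.440, edgeR). Cxcl13 without WT 3 and 4 was at -0.10 ± 1.41 in all mice, from 2.79 ± 2.02 in labelled males and -1.72 ± 1.12 in labelled females. In that fit over all mice, 2 of 16 other chemokines stood at the unadjusted threshold, Ccl4 lower and Ccl11 higher in Slfn3KO, beside 3.03% of all genes. Cxcl13 was not among them.

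Cxcr5, the receptor of Cxcl13, was highest in male WT 3, female WT 4 and female WT 3, at 48.3, 31.6 and 22.4 CPM, the libraries highest for the B cell and follicle markers. The 10 B cell markers, with Cr2 at 0 in 2 libraries, summed to 20.7, 139, 472 and 616 CPM in female WT 1 to 4 and to 33.0, 9.89, 57.6 and 13.3 CPM in female Slfn3KO 1 to 4. In the males they summed to 7.01, 5.22, 956.5 and 198 CPM in WT 1 to 4 and to 2.70, 7.34, 93.2 and 142 CPM in Slfn3KO 1 to 4. In male WT 3, female WT 4 and female WT 3, where the list was highest, Ccl25 was at 379, 597 and 452.5 CPM, within its range elsewhere or below it. All 10 B cell markers had a lower fitted level in Slfn3KO in all mice, with a median log2 fold change of -2.99, and edgeR called 0 of them, with 10 at the unadjusted threshold beside 6.64% of all genes. In all mice without WT 3 and 4, 9 of 10 were higher instead, with a median of 0.155 and 0 at that threshold, beside 3.03% of all genes. By labelled sex the values were then opposite, with a median of 3.61 in males (10 of 10 higher) and -1.46 in females (10 of 10 lower). The difference between the labelled sexes then had a median of -5.12, with 8 of 10 at the unadjusted threshold beside 20.5% of all genes and 0 called by edgeR. The part of follicle tissue in the receptor and Cxcl13 values was not tested.

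**Figure D5:**
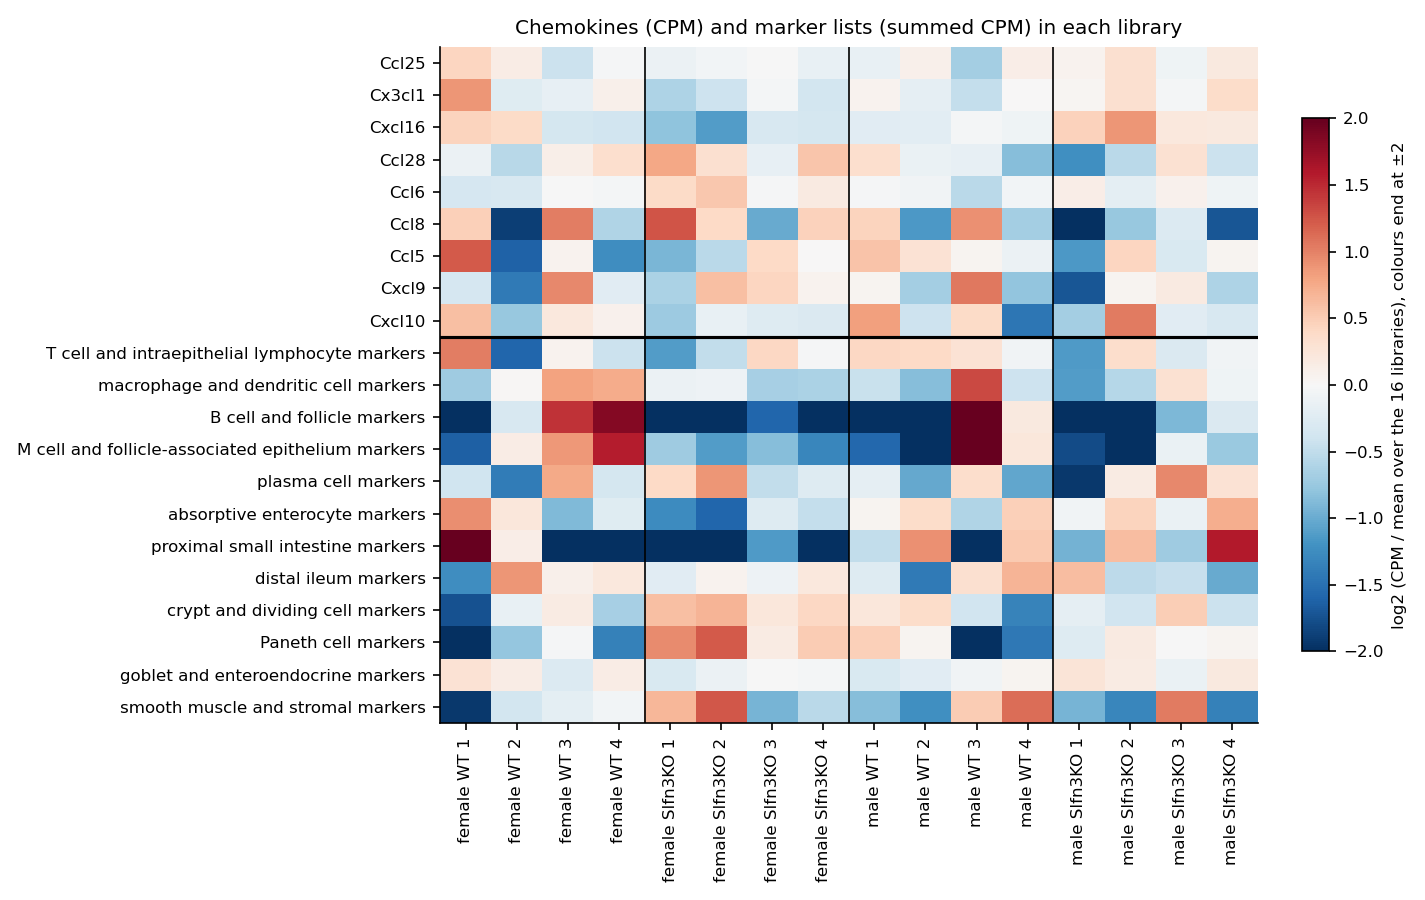
Level of each chemokine (CPM, above the line) and summed level of each marker list (CPM, below the line) in the 16 libraries, as log2 of the ratio to the mean over all libraries, with colours ending at -2 and 2; Ccl8 at 0 counts in male Slfn3KO 1 is drawn in the end colour. The B cell list is highest in male WT 3, female WT 4 and female WT 3, the Ccl5 row resembles that of the T cell list, and the Ccl25 row is pale throughout.

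The remaining marker lists showed how mixed the tissue was. Plasma cell markers, of which Igha had the highest mean, summed to between 595 and 4415 CPM, and macrophage and dendritic cell markers, of which Lyz2 had the highest mean and with Cd163 at 0 in 7 libraries, to between 55.9 and 303 CPM. M cell and follicle-associated epithelium markers lay between 19.9 and 345 CPM, crypt and dividing cell markers between 106 and 566 CPM, smooth muscle and stromal markers between 10.5 and 94.9 CPM, and goblet and enteroendocrine markers between 9475 and 14220 CPM. In all mice edgeR called 0 genes of these lists, and at the unadjusted threshold stood 0 plasma cell, 1 macrophage and dendritic cell, 4 M cell, 2 crypt, 4 Paneth cell, 0 smooth muscle and 0 goblet markers, beside 6.64% of all genes. The counts differed without WT 3 and 4, where 1 plasma cell, 1 smooth muscle and 1 goblet marker stood there and 0 macrophage, M cell, crypt or Paneth cell markers, beside 3.03% of all genes. All 5 Paneth cell and all 5 crypt markers were higher in Slfn3KO in all mice there, with medians of 0.73 and 0.38, after 1.07 and 0.65 with all libraries. In labelled males, however, 5 of 5 Paneth cell markers (median -0.35) and 4 of 5 crypt markers (median -0.07) were then lower, so the pooled direction came from the females. In labelled females with all libraries, 5 of 5 Paneth cell and 4 of 5 crypt markers stood at that threshold, all higher in Slfn3KO, beside 9.71% of all genes. The females without WT 3 and 4 had 5 of 5 Paneth cell markers (median 2.09) and 2 of 5 crypt markers there, beside 15.7% of all genes.

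Each chemokine had its own closest genes over the 16 libraries, by Pearson correlation of log2 CPM among 14767 named genes that passed the filter. Those of Ccl25 were Nags (r = 0.959, rho = 0.921) and Scarf1 (r = 0.948, rho = 0.976), and those of Cx3cl1 were Arf5 (r = 0.938, rho = 0.809) and BC025446 (r = 0.931, rho = 0.918). Cxcl16 was most like Chic2 (r = 0.928, rho = 0.897) and Wwc1 (r = 0.899, rho = 0.815), and Ccl28 was most like Itgam (r = 0.929, rho = 0.918) and Gm10134 (r = 0.893, rho = 0.918). Cxcl9 went with Serpinb9 (r = 0.923, rho = 0.95) and 9330175E14Rik (r = 0.922, rho = 0.832). For Cxcl10 the highest were Socs3 (r = 0.805, rho = 0.756) and Trim10 (r = 0.769, rho = 0.682). Ccl8 was most like Xcr1 (r = 0.919, rho = 0.888) and Adgrg6 (r = 0.911, rho = 0.879), and Ccl6 was most like Ica1 (r = 0.907, rho = 0.871) and Zfp976 (r = 0.877, rho = 0.835). With the 2 libraries farthest from each median left out, r stayed highest for Ccl5 with Itgae at 0.97 and lowest for Cxcl10 with Trim10 at 0.657. These are descriptions of the highest of many genes, with no test.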

How the data were processed

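RNA of ileum mucosa from 16 mice was sequenced from stranded libraries, and the authors deposited raw gene counts, made with featureCounts in its reverse-stranded setting on mm10 per the file headers, while the study's methods name another counter. The submitters' processing notes list featureCounts 1.4.6 and DESeq2 1.22.2. Each library is 1 mouse. Gene symbols matched 45143 of 46078 identifiers. Counts were scaled by TMM factors, and CPM and RPKM (exon length from the table) use these scaled totals. Genes passing filterByExpr on the 4 groups were fitted with edgeR 4.0.16 (robust quasi-likelihood F test) in R 4.3.3, with Benjamini-Hochberg adjustment over all genes tested. DESeq2 1.42.0 was an alternative, as were RLE factors, other filters, leaving out each mouse, leaving out WT 3 and 4, no sex covariate and a replicate block. The fits were tested on simulated data. Log2 CPM used a prior count of 2. The floor is 3 counts, 0.100 to 0.151 CPM, and covers counting error only. The 24 pairs of libraries within a group differed beyond counting noise (chi-square per degree of freedom 24.6 or more). Promoter windows are from RefSeq (GRCm38.p6), the build of the counts. Named genes were the 9 chemokines, receptors of theirs, fixed pathway genes, the 3 most abundant and 3 most changed other chemokines and the 2 genes most like each member. The members and lists were chosen with earlier results of these data known.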

Additional observations from a re-analysis of the deposited data

Results flagged for a closer look

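In 36 groups of 4 libraries (9 chemokines in 4 groups), 2 held a library far from the other 3, a number near the 1 in 20 groups that chance gives. Ccl6 in male WT 3 was at 123 CPM while the other male WT libraries lay between 171 and 178 CPM. Cxcl10 in male Slfn3KO 2 was at 10.6 CPM while the other male Slfn3KO libraries lay between 3.24 and 4.41 CPM, and without this library the log2 fold change of Cxcl10 in labelled males was -0.47 in place of 0.05.

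Cxcl16 differed in its response between the labelled sexes once WT 3 and 4 were left out, with a log2 difference of -1.71 (females minus males; adjusted p = 0.0441, edgeR interaction). That fit has 2 WT libraries of each labelled sex and called 359 of 15093 genes (2.38%), among them 2 of 5 Paneth cell and 2 of 5 crypt and dividing cell markers, and 20.5% of all genes stood at the unadjusted threshold. With all 16 libraries the value was -1.29 (adjusted p = 0.441, edgeR), whereas DESeq2 on the same libraries called Cxcl16 for this difference, as given above.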

How the results depend on the processing

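No chemokine was called in all mice, labelled males or labelled females under the alternatives run, and edgeR called 0 genes in these comparisons with RLE factors, no or a stricter filter, a replicate block, each mouse left out in turn or WT 3 and 4 left out. DESeq2 called 55 genes in all mice, 14 in labelled males, 506 in labelled females and 24 for the difference between the labelled sexes, for which edgeR without WT 3 and 4 called 359. At the unadjusted threshold the counts were 984, 272, 1366 and 946. The alternatives for each chemokine's difference between the labelled sexes were chosen after seeing the data. DESeq2 gave no adjusted p for Ccl8 in labelled females and for its difference.

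Small changes turned direction, and the cause was not tested. Without WT 3 and 4 the log2 value was -0.125 for Ccl25 and 0.405 for Cxcl9 in all mice, -0.201 for Cxcl10 in labelled males and -0.007 for Ccl5 in the difference between the labelled sexes. With no sex covariate Cxcl16 was at 0.055. Leaving out each mouse in turn gave, in all mice, -0.438 to 0.06 for Ccl5 (above 0 without female WT 1), -0.034 to 0.135 for Ccl25 (below 0 without male WT 3 or male Slfn3KO 2), -0.018 to 0.212 for Ccl28 (below 0 without male Slfn3KO 3), -0.302 to 0.138 for Cxcl9 (turned without male WT 3, female WT 3 or male Slfn3KO 1), -0.163 to 0.087 for Cxcl16 (above 0 without female WT 1 or 2 or female Slfn3KO 1 or 2) and -0.212 to 0.051 for Cx3cl1 (above 0 without female WT 1). In labelled males it gave -0.718 to 0.079 for Cxcl9 (above 0 without WT 3) and -0.467 to 0.406 for Cxcl10 (below 0 without WT 2, WT 4 or Slfn3KO 2). In labelled females it gave -0.518 to 0.573 for Ccl5 (above 0 without WT 1), -0.032 to 0.844 for Ccl8 (below 0 without Slfn3KO 1) and -0.072 to 0.754 for Cxcl9 (below 0 without WT 2). For the difference between the labelled sexes it gave -0.159 to 0.93 for Ccl5 (below 0 without female WT 2 or 4, female Slfn3KO 3 or male Slfn3KO 1) and -0.866 to 0.017 for Cxcl10 (above 0 without male Slfn3KO 2).

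Deviations of equally numbered Slfn3KO and WT libraries correlated at 0.138 to 0.518 in labelled males but at -0.362 to 0.143 in labelled females. With the number as a replicate block Ccl5 in labelled females was at 0.207. Ccl8, Ccr3 and Ccr8 lie near the floor, where depth limits precision.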
